A study of Triticum aestivum with 48 samples.

Results

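The 100 probe sets described here were higher in roots on low nitrogen in all 4 wheat genotypes of the study, and were the 100 with the largest such shared difference among 61179 probe sets of the Affymetrix Wheat Genome Array. They were chosen on the root arrays: each array's median was subtracted from its log2 values, the mean of the 3 control root arrays was subtracted from the mean of the 3 stressed root arrays in each genotype, and the lowest of the 4 differences was taken as a score. The 100 probe sets with the highest score are the members. Because the rule used the root differences, these are given as values and counts with no test, and the only tests reported for the members are on the shoot arrays, which the rule did not use.

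The study asked how seedlings of 4 bread wheat genotypes (Triticum aestivum), HD2967, K9107, K307 and Chotilarma (CL), differ in transcript levels under chronic nitrogen limitation. Seeds germinated on wet filter paper were moved to pots of vermiculite and perlite, 5 to a pot, and grown for 15 days on a modified MS medium with calcium nitrate as the nitrogen source. Control pots received 8 mM and stressed pots 0.08 mM, and apart from this salt all seedlings were raised alike. The salt also supplies calcium, so effects of nitrate and of calcium from the salt cannot be told apart. The contrast is called low nitrogen here. RNA of whole root or shoot tissue was hybridised to 48 arrays, 3 for each of the 16 groups of genotype, tissue and nitrogen supply. The series description speaks of 3 sets of pots for each genotype, but the labels do not tie an array to a set of pots or to plants, so a p-value measures the spread between these arrays, which may be partly technical. Values are log2 signal relative to the array's median probe set, a scale on which 0 is the median and on which levels of different probe sets cannot be compared. Whole tissue was assayed, so more cells of a type and more transcript per cell cannot be told apart.

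Wheat roots take up nitrate through transporters of the plasma membrane, reduce it to ammonium and build it into glutamine and glutamate, largely by glutamine synthetase and glutamate synthase. Plants kept on little nitrate are known to raise high-affinity uptake, to alter root growth and to move nitrogen out of older leaves. Which of these processes the members belong to can hardly be read from the array's annotation, which pairs only 1273 of the 61179 probe sets with a gene (2.08%). Among the members, 6 probe sets were paired with 4 genes, LOC543176, LOC543152, LOC542942 and LOC543399, names taken over from the array's annotation that give no function. The other members are given by their probe set identifiers. The members carried 83 base identifiers, which group the probe sets designed to 1 transcript cluster, so the 100 are not 100 separate genes: 28 of them shared 11 base identifiers.

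The array medians fell into 4 sets of 12 arrays, from 1.14 to 1.26 in the first, 4.33 to 4.46 in the second, 4.60 to 4.68 in the third and 5.31 to 5.39 in the last, a grouping of the deposited values that no label or header explains. These groups of arrays are called median sets here. All 12 CL arrays, and only these, made up the first set, and its values were compressed at the low end. The scale of the CL values and the CL genotype therefore cannot be told apart, and CL differences are not read as ordinary folds. The tissue labels matched the shoot markers PsbO and PsbP, subunits of the oxygen-evolving complex of photosystem II, and PRK, the phosphoribulokinase of the Calvin cycle: their median level was 0.01 to 1.56 in the 24 root arrays and 5.02 to 8.09 in the 24 shoot arrays. CL root stressed array 1 has a tissue characteristic that reads shoot, against its title, source and description. Its shoot marker median was 1.23, within the root range, and over all probe sets it correlated at 0.893 or more with the other CL root arrays and at 0.837 or less with the CL shoot arrays, so it was kept as root. It nevertheless stood apart from its group, and the CL root counts and the leading members' CL differences are also given without it. The description of HD2967 shoot stressed array 1 also names root, against its other labels, and it was kept as shoot.

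The shared root differences were large at the top of the list and fell off quickly. The score ran from 2.59 for a probe set of LOC543176 to 0.556 for the last member, with a median of 0.826, and 33 members had a score over 1 and 5 a score over 2. By comparison, all 4 differences were above 0 in 6698 probe sets, 10.9% of all. The lower edge of the list is not a gap. The last members inside were Ta.5164.1.S1_at, Ta.12796.1.S1_s_at and TaAffx.81163.1.S1_at at 0.558, 0.557 and 0.556, and the first outside were Ta.3853.2.S1_at, Ta.6606.2.S1_x_at and Ta.14365.3.S1_at at 0.551, 0.551 and 0.544.

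The differences were not of the same size in the 4 genotypes, although for CL the scale and the genotype cannot be told apart. The median difference of the members was 1.55 in K307, 1.33 in K9107, 1.21 in HD2967 and 0.92 in CL, while the median of all probe sets lay between -0.01 and 0.05 in each. CL gave the lowest of the 4 differences for 51 members, HD2967 for 27, K9107 for 14 and K307 for 8, and K307 gave the highest for 45. Without CL root stressed 1, CL gave the lowest difference for 35 members. A member's 4 differences spanned a median of 0.86, with 19 members spanning under 0.5 and 42 over 1. The most even was Ta.5191.1.A1_at, with differences of 0.77, 0.84, 0.79 and 0.71 in HD2967, K9107, K307 and CL. The most uneven was TaAffx.64615.1.A1_at, with 2.24, 4.35, 4.40 and 1.18 in the same order. Its CL value was 2.13 without CL root stressed 1.

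**Figure D1:**
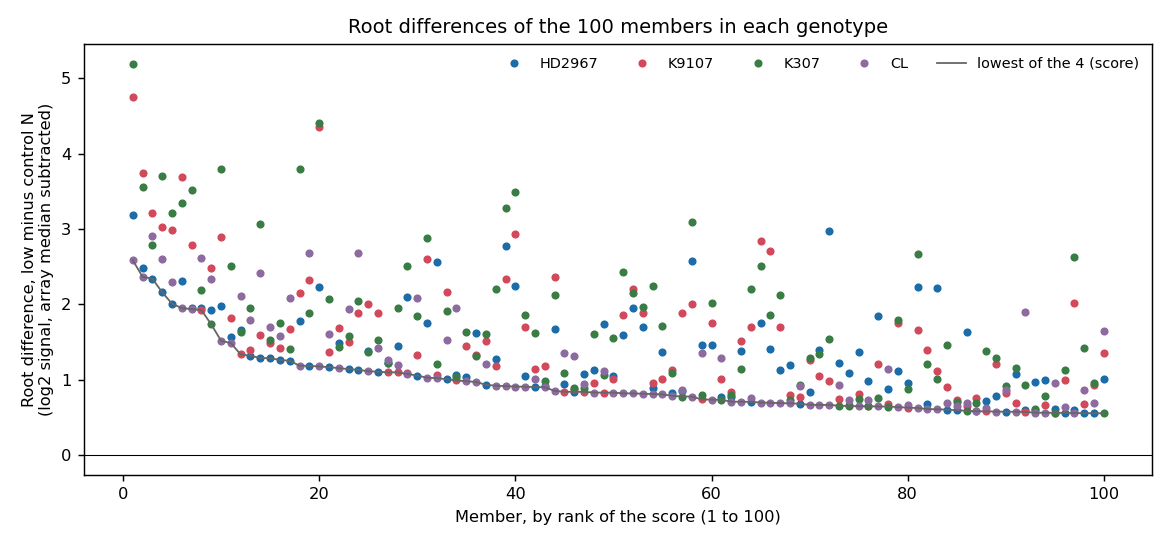
Root difference of each of the 100 members, stressed minus control mean of 3 arrays each, on the log2 scale after subtraction of the array median, with members ordered by score along the horizontal axis. Points are the 4 genotypes and the line is the lowest of the 4, which falls from 2.59 to 0.556; K307 points often lie far above it, and CL points lie on it for 51 members.

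The leading gene was LOC543176, whose 3 probe sets on the array are all members and rank 1, 2 and 6. Its top probe set, Ta.28353.2.S1_at, lay at -0.48, -0.64 and -0.98 in control and 2.70, 2.08 and 2.70 in stressed roots of HD2967. In K9107 roots it lay at -0.67, 0.01 and -0.82 in control and 4.89, 5.28 and 2.60 in stressed arrays. In K307 roots it lay at -0.25, -0.30 and 0.32 in control and 5.78, 4.84 and 4.74 in stressed arrays. The transcript was thus near or below the array median in every control root of these genotypes and far above it in every stressed root. CL control roots held -0.18, 0.05 and 0.15, and CL stressed roots 0.57, 4.15 and 3.05. Stressed array 1 was the low one, and even so the CL groups did not overlap. The differences were 3.19, 4.75, 5.20 and 2.59 in HD2967, K9107, K307 and CL, and the CL value was 3.59 without stressed array 1. The other 2 probe sets of the gene, Ta.28353.1.S1_x_at and Ta.28353.1.S1_at, had differences between 1.95 and 3.74, and CL values of 2.85 and 2.80 without that array. In shoots the top probe set stayed low at both supplies, with group means from -1.87 to -1.56 in HD2967, K9107 and K307 and of -0.19 and -0.13 in CL.

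The next group was the base identifier Ta.5633, with 5 members among its 6 probe sets and ranks 3, 4, 5, 7 and 10. Ta.5633.2.S1_at lay at 0.23, -0.14 and -0.66 in control and 2.17, 2.53 and 1.74 in stressed roots of HD2967. In K9107 roots the values were 0.02, 0.58 and 0.16 in control and 3.90, 3.36 and 3.14 in stressed arrays, and in K307 roots -0.23, 0.16 and 0.04 against 2.52, 2.74 and 3.08. CL roots held 0.64, 0.54 and 0.47 in control and 3.29, 3.74 and 3.34 in stressed arrays. The differences were 2.34, 3.21, 2.79 and 2.91 in HD2967, K9107, K307 and CL, and CL stressed array 1 lay close to the other stressed arrays (2.99 without it). The 5 members had root differences between 1.52 and 3.80. The sixth probe set of Ta.5633 is no member, with a score of -0.11, so the probe sets of this cluster disagreed.

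Other members of the highest 20 show how the pattern varied. Ta.14365.3.S1_a_at (rank 8) was already well above the array median in control roots, at 2.36, 2.38 and 2.62 in HD2967 and 2.36, 2.00 and 2.82 in CL, and reached 4.29, 4.51 and 4.44 in stressed HD2967 and 3.76, 6.24 and 5.04 in stressed CL. In K9107 it went from 3.14, 3.92 and 3.51 to 5.72, 5.95 and 4.68, and in K307 from 3.73, 3.00 and 3.28 to 5.55, 5.25 and 5.81. No genotype's groups overlapped, and the CL difference of 2.62 was 3.24 without stressed array 1. Ta.264.1.S1_s_at (rank 9) had differences of 1.92, 2.48, 1.74 and 2.34 in HD2967, K9107, K307 and CL, the last 2.95 without it. Its HD2967 control array 1, at 4.18, lay far above the other controls of that genotype, at 2.29 and 2.37, and still below the stressed arrays at 5.09, 4.85 and 4.67. Ta.1608.1.S1_at (rank 18) and TaAffx.64615.1.A1_at (rank 20) had non-overlapping groups in HD2967, K9107 and K307 and overlapping groups in CL. In CL stressed array 1 they lay at 0.19 and -0.12, below the CL controls, while arrays 2 and 3 held 3.09 and 1.57 for the former and 4.17 and 1.33 for the latter. Without array 1 their CL differences were 1.90 and 2.13, in place of 1.19 and 1.18.

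**Figure D2:**
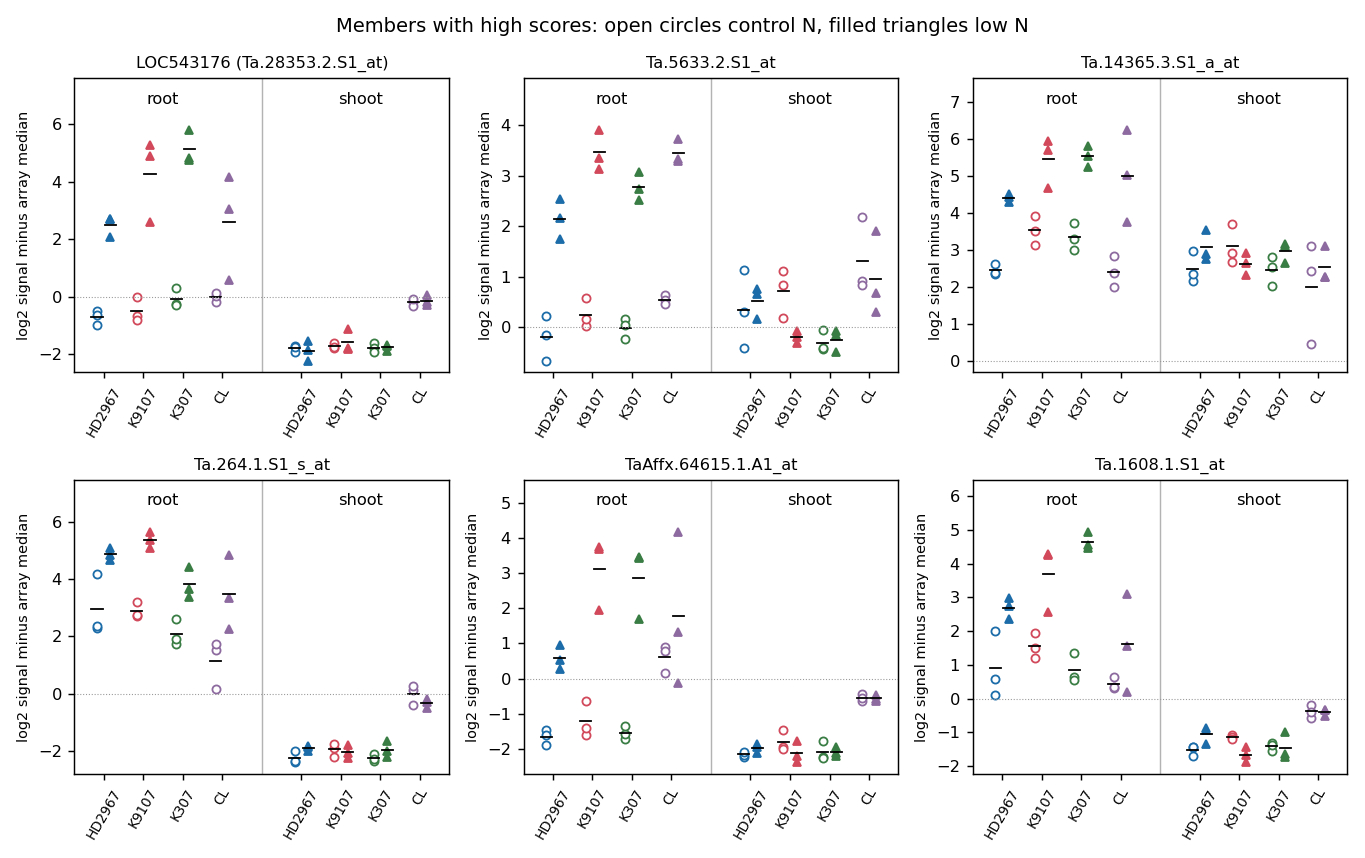
Log2 signal minus array median in each of the 48 arrays for 6 members with high scores, roots on the left and shoots on the right of each panel, by genotype. Open circles are control and filled triangles low nitrogen, and bars are means of 3 arrays; LOC543176, Ta.264.1.S1_s_at, TaAffx.64615.1.A1_at and Ta.1608.1.S1_at have means below the array median in all 8 shoot groups.

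The other 3 genes with an identifier had smaller root differences. LOC543152, measured by Ta.10047.1.S1_s_at (rank 26), had root differences of 1.11, 1.89, 1.53 and 1.42 in HD2967, K9107, K307 and CL, with no overlap in any of them. Its second probe set, Ta.10047.2.S1_at, ranked 41155 with differences from -0.31 to 0.59, so the 2 probe sets of this gene disagreed. LOC542942, measured by Ta.2794.1.S1_at (rank 34), had differences of 1.06, 0.99 and 1.04 in HD2967, K9107 and K307 and of 1.96 in CL. Its control means were already 5.93 ± 0.25 (SD, n = 3) in K9107, 5.60 ± 0.22 in K307, 5.13 ± 0.27 in HD2967 and 4.60 ± 0.47 in CL. LOC543399, measured by Ta.5174.1.S1_at (rank 46), had differences of 0.84, 0.88, 0.89 and 1.32 in HD2967, K9107, K307 and CL. HD2967 overlapped, with control array 1 at 6.24 beside stressed arrays at 6.29, 6.19 and 6.18, and so did CL, whose stressed array 1 lay at 3.87 within controls of 4.39, 3.42 and 4.46. The other probe set of LOC543399, Ta.5174.3.S1_x_at, ranked 16295 with a score of -0.09. Without CL root stressed 1 the CL differences were 1.63 for LOC543152, 2.48 for LOC542942 and 2.09 for LOC543399.

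Beyond LOC543176 and Ta.5633, the base identifiers with several members were Ta.693 and Ta.27457 with 3 each and 7 others with 2 each. All probe sets of the cluster were members for TaAffx.111593, Ta.2870 and TaAffx.110499, and in the others 1 to 4 probe sets fell outside the list. By type, 65 of the members were unique probe sets ending in _at alone, against 79.2% of all probe sets on the array. Another 15 ended in _x_at, 11 in _s_at and 9 in _a_at, types whose probes can match more than 1 transcript, against 11.1%, 4.31% and 5.43% of all. For these, signal from near-identical wheat homoeologues cannot be told apart, and whether the probe sets ending in _at alone separate homoeologues was not tested. Identifiers starting with TaAffx made up 19 members and 48.5% of the array.

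Counted by single arrays, stressed and control roots were apart for most members in HD2967, K9107 and K307 and for fewer in CL. Stressed and control arrays did not overlap, with stressed higher, for 100 members in K307 (11.9% of all probe sets), 96 in HD2967 (14.2%), 92 in K9107 (5.89%) and 53 in CL (5.66%). This held in at least 3 genotypes for 94 members (1.26%) and in all 4 at once for 48 (0.159%). The rule used these arrays, so nothing is read from the comparison with the background. CL stressed array 1 was the lowest of its 3 for 68 members and exceeded the highest control for 66, against 91 and 87 in arrays 2 and 3. Without it, which leaves 2 stressed arrays to exceed the controls, the CL count was 82 (12.5% of all probe sets), the count for at least 3 genotypes 98 (1.83%) and that for all 4 genotypes 73 (0.304%). Without it the CL median difference was 1.17 in place of 0.92, and the list chosen without it shared 75 members with the list used. The CL difference was higher without it for 73 members. Other members rested largely on it in CL: the difference went from 0.56 to -0.15 for Ta.5138.2.S1_a_at. It went from 0.92 to 0.13 for Ta.975.2.S1_at and from 1.03 to 0.28 for Ta.975.1.S1_a_at. The shoot marker median of CL root stressed 1, 1.23, was close to the 1.20 of CL root control 1 and above the 0.70 and 0.65 of stressed arrays 2 and 3. The part of shoot RNA in the CL values was not tested.

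The root differences were also present among arrays of 1 median set, where such a comparison existed. In HD2967 the third set gave a median of 1.29 over the members, with 100 above 0 (53.7% of all probe sets). In K9107 the second set gave 0.91, with 97 above 0 (52.4%), and the last set 1.55, with 100 (44.8%). In K307 the second set gave 1.73, with 100 (56.3%), and the third 1.18, with 100 (51.2%). These comparisons rest on 1 to 3 arrays a side, all of them arrays that the rule used.

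The median of the 100 members in each array shows the size of the shift. In K307 roots it was 2.30, 2.27 and 2.40 in control and 3.87, 3.99 and 4.19 in stressed arrays. In CL roots it was 1.31, 0.99 and 1.25 against 2.26, 3.07 and 2.58. Most members were expressed above the array median before any change: 84 to 90 of them in the control roots of the 4 genotypes, and 96 to 99 in the stressed roots. In shoots 76 to 81 lay above it in control and 79 to 87 in stressed groups.

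**Figure D3:**
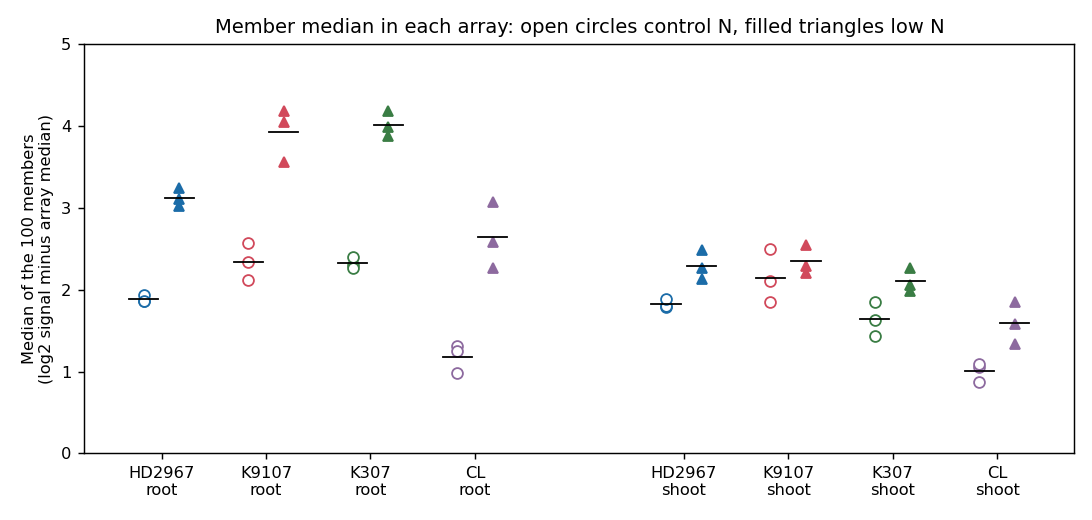
Median over the 100 members of log2 signal minus array median, in each of the 48 arrays, by genotype and tissue. Open circles are control and filled triangles low nitrogen, and bars are means of 3 arrays; the groups are apart in the roots of every genotype, as the choice of members makes them, and overlap only in K9107 shoots.

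Root and shoot levels of the members were also set side by side at each supply. The rule used both the control and the stressed root arrays, and it favours low control values, so nothing is read from these counts about where the members are expressed. At control nitrogen, root and shoot arrays did not overlap, with root higher, for 34 members in HD2967 (20.8% of all probe sets), 43 in K9107 (15.4%), 45 in K307 (16.8%) and 22 in CL (13.1%). With root lower, the counts were 33 (16.6%), 30 (15%), 20 (15.3%) and 25 (9.92%). The median root minus shoot difference was 0.01, 0.27, 0.43 and -0.06 in HD2967, K9107, K307 and CL. On low nitrogen it was 0.90, 1.65, 2.08 and 0.72. The root-higher counts were then 57 (18.2%), 68 (17.2%), 72 (17.1%) and 48 (11.7%), and the root-lower counts 21 (11.9%), 12 (12%), 13 (14.4%) and 16 (14.7%). Without CL root stressed 1 the CL median was 1.00, with 60 higher (21.3%) and 20 lower (18.9%).

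A smaller group of members was low in shoots. For 9 members the mean was below the array median in all 8 shoot groups, which was so for 36.3% of all probe sets, and all 9 had stressed root means above the array median in every genotype, as did 95 of the members and 39.7% of all probe sets. Both conditions were met by 0.329% of all probe sets. The root condition uses arrays that the rule used, so nothing is read from the 9 against that share. The 9 were the 3 probe sets of LOC543176, then Ta.264.1.S1_s_at, Ta.1608.1.S1_at, TaAffx.64615.1.A1_at, TaAffx.83697.1.S1_at, TaAffx.111482.1.S1_at and Ta.5138.2.S1_a_at. Without CL root stressed 1 the CL root difference of Ta.5138.2.S1_a_at was -0.15 in place of 0.56. In shoots Ta.264.1.S1_s_at lay at -2.40, -2.01 and -2.34 in control and -1.86, -2.02 and -1.84 in stressed HD2967, against 4.18, 2.29 and 2.37 in the control roots of that genotype. The shoot differences of the 9, averaged over genotypes, ran from -0.18 to 0.21, and none passed the test described next (limma adjusted p from 0.186 to 0.932). The highest shoot group mean was -0.54 for TaAffx.64615.1.A1_at and -0.0035 for Ta.264.1.S1_s_at, the lowest and highest of the 9. Whether these values stand above the arrays' background was not tested.

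The shoot arrays were then used to ask whether the members also respond outside the root. All 24 shoot arrays were fitted together with limma over 61179 probe sets, with the median set as a term, two-sided tests and Benjamini-Hochberg adjustment over all probe sets, and a call was an adjusted p under 0.05. Averaged over the 4 genotypes, 15 members were higher on low nitrogen (0.517% of all probe sets) and 3 were lower (0.245%). The estimate was above 0 for 74 members (46%) and above 0 in each of the 4 genotypes for 37 (6.26%), and it was below 0 in each for 5 (8.21%). The median over the members was 0.35, against -0.01 over all probe sets. At an unadjusted p under 0.05 there were 54 members (12.3%). Most members lie above the array median in shoots, so a fit of only the probe sets with a shoot mean above it was also made. There 16 of 83 members were higher and 3 lower, and 1.63% of those probe sets were called in either direction. In the fit over all probe sets, 2 of the 20 members with the highest root scores were called, Ta.27414.1.S1_at higher and Ta.24768.1.A1_x_at lower. Over the 100 members the root and shoot average differences correlated at -0.24, and over all 61179 probe sets at 0.23. The rule chose the members on their root differences and so cut off the low end of that range. The correlation over the members therefore cannot be compared with that over all probe sets, and nothing is read from the difference in sign. Several of the members with the largest root averages also share a base identifier. The points share the arrays of each tissue, and genes are not independent replicates.

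**Figure D4:**
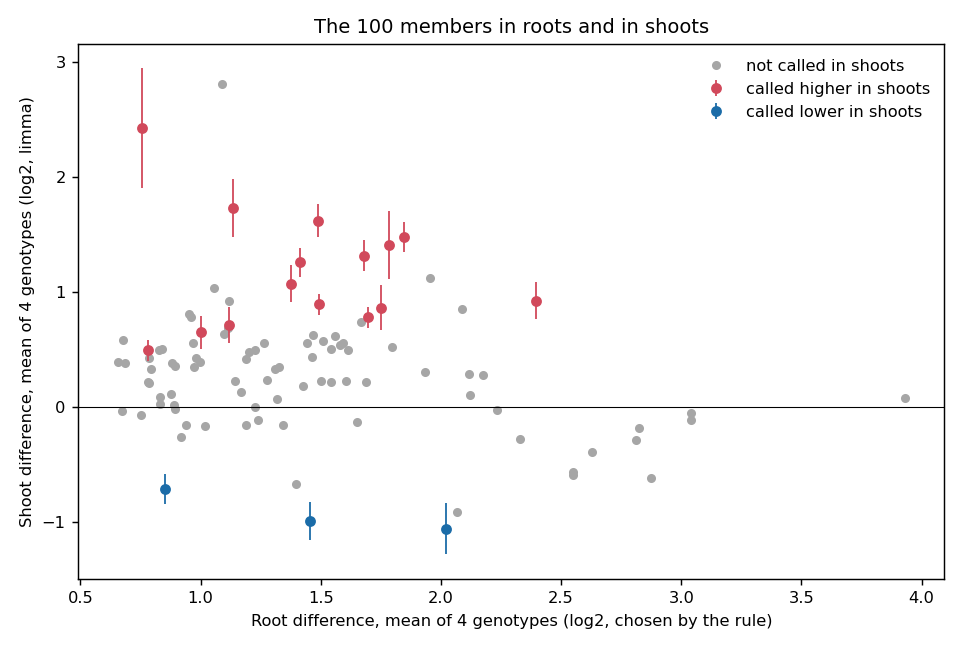
Each point is 1 of the 100 members, with its mean root difference over the 4 genotypes on the horizontal axis, which the rule used, and its limma estimate of the average shoot difference on the vertical axis, both on the log2 scale. Red points are the 15 called higher and blue points the 3 called lower in shoots, with standard errors; the points farthest to the right are probe sets of LOC543176, Ta.5633 and TaAffx.64615, between -0.62 and 0.07 in shoots.

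Counted by single arrays, stressed shoots lay above all controls of their genotype for 27 members in HD2967 (10.1% of all probe sets), 20 in K9107 (2.29%), 19 in CL (10.9%) and 35 in K307 (7.83%). They lay below for 2 (12.3%), 13 (6.88%), 5 (6.75%) and 1 (3.64%) in that order. At least 3 genotypes were apart and higher for 9 members (0.404%), and apart and lower for 0 (0.163%). The clearest shoot rises were in members whose groups did not overlap in any of the 4 shoot genotypes. There were 5 of these, against 0.0687% of all probe sets: Ta.27414.1.S1_at, LOC543152, Ta.27574.1.S1_at, Ta.1817.1.S1_at and Ta.27041.1.S1_s_at. Ta.27414.1.S1_at lay at 1.58, 1.06 and 1.06 in control and 2.10, 2.32 and 1.62 in stressed shoots of HD2967, and at 0.82, 0.79 and 0.36 against 2.80, 2.66 and 2.15 in K9107. In K307 shoots it lay at 0.81, 1.24 and 1.34 against 2.34, 3.04 and 2.21, and in CL shoots at 0.34, 0.81 and 0.73 against 2.49, 2.58 and 2.93. Every stressed shoot exceeded every control of its genotype, by least in HD2967. Its average shoot difference was 1.47 ± 0.13 (SE, 3 arrays a group, limma adjusted p = 3.26e-05), beside root differences of 1.57, 1.82, 2.51 and 1.49 in HD2967, K9107, K307 and CL.

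Of the 4 genes with an identifier, only LOC543152 had a member probe set called in shoots, Ta.10047.1.S1_s_at. The shoot result of its second probe set, which disagreed in roots, is not given here. Ta.10047.1.S1_s_at lay at 1.79, 1.04 and 0.54 in control and 2.85, 2.51 and 2.29 in stressed shoots of HD2967. In K9107 shoots it lay at 1.25, 1.03 and 0.93 against 3.17, 3.29 and 2.68. In K307 shoots the values were 1.06, 2.12 and 1.42 against 3.03, 3.32 and 2.63, and in CL shoots 1.06, 0.98 and 1.02 against 3.28, 2.63 and 2.72. The CL controls were tight and the K307 controls wide, with array 2 high. The average difference was 1.62 ± 0.15 (limma adjusted p = 3.47e-05). LOC542942 lay at 0.55 (limma adjusted p = 0.339) and LOC543399 at 0.43 (limma adjusted p = 0.515), and both missed the threshold. The 3 probe sets of LOC543176 lay between -0.18 and 0.07.

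Ta.27574.1.S1_at was higher in shoots by 1.31 ± 0.13, Ta.27041.1.S1_s_at by 1.25 ± 0.13 and Ta.1817.1.S1_at by 0.89 ± 0.09 (limma adjusted p = 0.000114 for each). Ta.27041.1.S1_s_at started near the array median in both tissues. Its stressed shoots held 0.12, 0.63 and 0.41 in HD2967, 1.46, 0.98 and 1.16 in K9107, 0.79, 1.65 and 1.57 in K307 and 0.99, 0.55 and 0.44 in CL, with all 12 controls between -0.77 and -0.05. Ta.22759.1.S1_x_at and Ta.29451.1.A1_at were higher by 1.73 ± 0.25 and 1.07 ± 0.16 (limma adjusted p = 0.00326 for each). The latter missed the threshold without the 12 CL arrays (adjusted p = 0.0503). Ta.22759.1.S1_x_at had overlapping groups in K9107 and CL shoots. In HD2967 shoots it lay at 1.42, 1.40 and 1.89 in control and 5.54, 4.88 and 4.73 in stressed arrays, a plain difference of 3.48. The 2 supplies share no median set there, and the set-adjusted estimate was 2.59 ± 0.66 (limma adjusted p = 0.528).

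Ta.8277.1.A1_at, higher by 0.78 ± 0.10 on average (limma adjusted p = 0.000602), had the lowest p among the members for a difference in response between genotypes. Its HD2967 shoots went from -1.27, -1.39 and -1.41 to 0.16, 0.06 and 0.87, and its K307 shoots from -1.93, -1.37 and -1.36 to -0.42, -0.76 and -0.49. In K9107 shoots it lay at -1.88, -0.99 and -1.26 in control and -1.50, -1.39 and -1.33 in stressed arrays, and in CL shoots at -0.21, -0.08 and -0.05 against -0.06, -0.06 and 0.38. The HD2967 and K307 groups were apart and the K9107 and CL groups overlapped. The set-adjusted estimates were 1.74 ± 0.25 in HD2967 (limma adjusted p = 0.0157), 1.15 ± 0.19 in K307 (0.0352), 0.01 ± 0.19 in K9107 and 0.20 ± 0.18 in CL. The test of the difference between genotypes itself gave a limma adjusted p of 0.0805 and so missed the threshold.

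**Figure D5:**
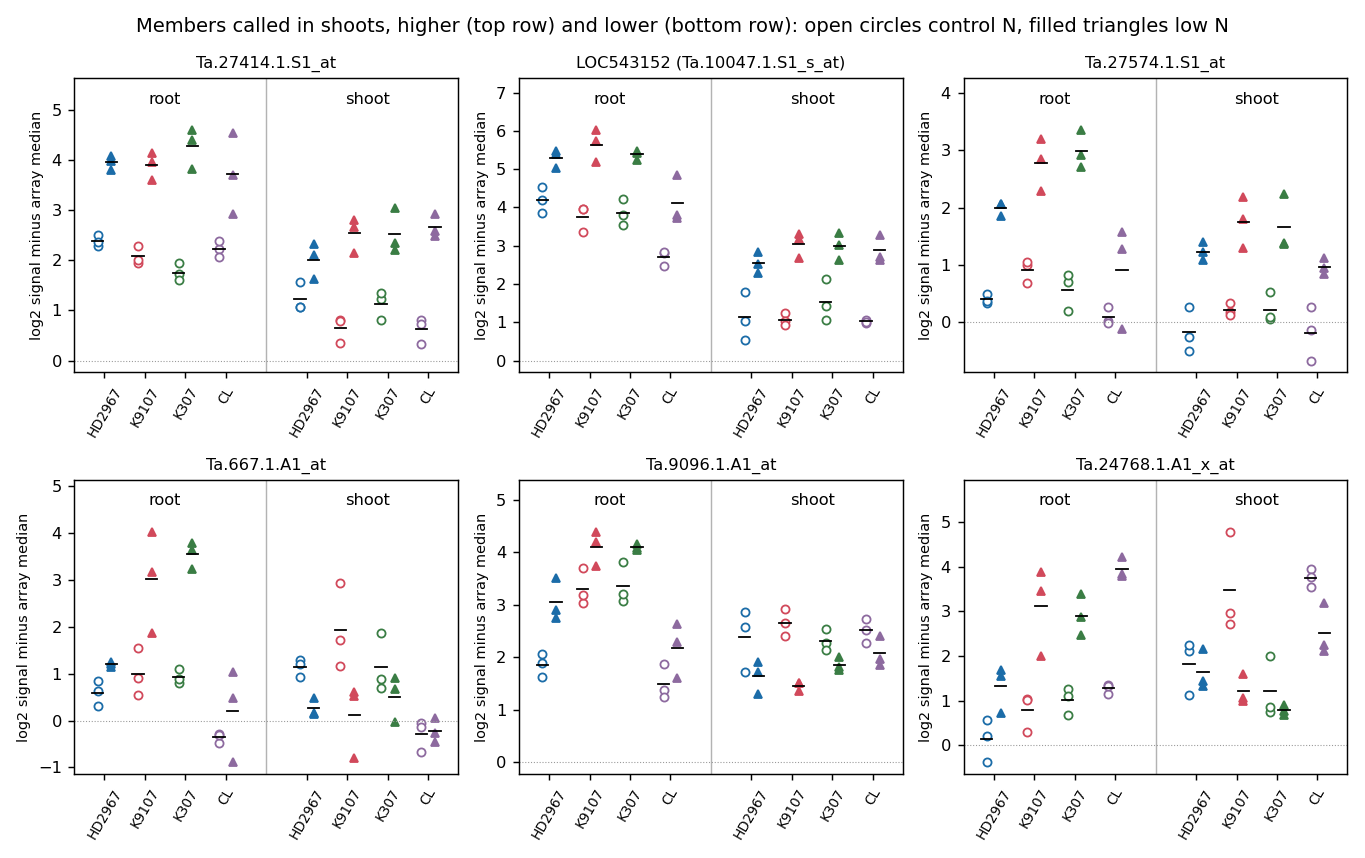
Log2 signal minus array median in each array for 3 members called higher (top) and the 3 called lower (bottom) in shoots, roots on the left and shoots on the right of each panel. Open circles are control and filled triangles low nitrogen, and bars are means of 3 arrays; the top members are higher on low nitrogen in both tissues, and the bottom members are higher in roots and lower on average in shoots.

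The remaining 7 members called higher had adjusted p from 0.00991 to 0.0499 and average differences from 0.49 ± 0.09 for Ta.5191.1.A1_at to 2.42 ± 0.52 for Ta.23013.3.S1_s_at (limma adjusted p = 0.0375). The latter rested on scattered arrays. HD2967 shoot controls held 6.52, 2.84 and 2.90, K307 controls 3.36, 6.53 and 6.08 and K307 stressed shoots 7.09, 6.99 and 3.24, so that HD2967 control 1 and K307 stressed 3 went against their groups. Leaving out 1 array at a time ended the call in 18 of 24 fits, with adjusted p up to 0.101, reached without K307 shoot control 1. In CL its shoots were at 0.89, 0.70 and 1.38 in control and 6.16, 6.90 and 5.16 in stressed arrays. Ta.28347.1.S1_s_at, which was not called in the average, had the same arrays apart: HD2967 shoot controls of 7.33, 0.46 and 0.25, K307 controls of 2.33, 6.50 and 6.81, and K307 stressed shoots of 7.25, 7.12 and 1.11.

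For the 3 members called lower in shoots, the average differences of the 2 tissues had opposite signs. The rule fixes this for any member lower in shoots, because every member has root differences above 0. Ta.667.1.A1_at lay at 0.93, 1.29 and 1.22 in control and 0.16, 0.14 and 0.49 in stressed shoots of HD2967, at 2.93, 1.16 and 1.73 against 0.52, 0.60 and -0.79 in K9107, and at 1.88, 0.69 and 0.89 against 0.90, 0.67 and -0.04 in K307. CL shoots held -0.68, -0.06 and -0.13 against -0.45, 0.05 and -0.27. HD2967 and K9107 groups were apart, and K307 and CL groups overlapped. It fell by 1.00 ± 0.16 on average (limma adjusted p = 0.00745), while its root differences were 0.60, 2.02, 2.63 and 0.56 in HD2967, K9107, K307 and CL, the last 1.11 without CL root stressed 1. That call was lost with no set term (adjusted p = 0.0641) and after quantile normalisation (0.0731).

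Ta.9096.1.A1_at fell in shoots by 0.72 ± 0.13 (limma adjusted p = 0.0137) and was the only called-lower member with a negative estimate in all 4 genotypes. Its K9107 shoots lay at 2.92, 2.65 and 2.41 in control and 1.36, 1.51 and 1.51 in stressed arrays, against 3.02, 3.71 and 3.18 and 4.19, 4.38 and 3.74 in K9107 roots. The call was lost without K307 shoot control 1 (adjusted p = 0.0532) and without the 12 CL arrays (0.0522). Ta.24768.1.A1_x_at fell by 1.06 ± 0.23 (limma adjusted p = 0.0355), chiefly in K9107, from 4.77, 2.95 and 2.71 to 1.00, 1.07 and 1.60, and in CL, from 3.95, 3.77 and 3.55 to 2.25, 2.10 and 3.19. In CL roots the same probe set went the other way, from 1.34, 1.15 and 1.32 to 3.79, 4.22 and 3.84. Leaving out 1 array at a time ended its shoot call in 15 of 24 fits, with adjusted p up to 0.125, reached without K307 shoot control 1, and so did leaving out the 12 CL arrays (0.232).

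Of the members called in the shoot average, 8 of the 15 higher and 1 of the 3 lower, Ta.667.1.A1_at, stayed called in each of the 24 fits that lacked 1 array. The count of 18 called members was 10 without K307 shoot control 1, 10 without K9107 shoot stressed 3 and 11 without the 12 CL arrays. HD2967 shoot arrays of the 2 supplies shared no median set, so the HD2967 estimate depends on offsets measured in K9107 and K307. Without the 6 HD2967 shoot arrays, 10 members were higher and 4 lower, and 9 of the 15 were among the higher ones. Within sets, the shoot median of the members was -0.11 and 0.24 in K9107 and 0.37 and 0.35 in K307. The medians of all probe sets were -0.15 and -0.13 in K9107 and -0.006 and 0.05 in K307, in the same order.

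Tested within a genotype, few members passed in shoots, and none of the calls was lower with all 24 arrays in the fit (0.521% of all probe sets in CL, 0.0392% in K9107, 0.0212% in K307 and 0.0049% in HD2967), with 28 (16.1%), 32 (12.5%), 29 (4.3%) and 19 (4.24%) members of either direction at an unadjusted p under 0.05. The limma estimate was above 0 for 84 members in K307 (54%), 78 in HD2967 (57%), 60 in CL (50%) and 56 in K9107 (30.7%). In HD2967 Ta.8277.1.A1_at alone passed (0.018% of all probe sets were higher). This count was 0 without HD2967 shoot control 2, HD2967 stressed 2, K9107 stressed 2, K9107 stressed 3 or K307 control 3. In K9107, 4 passed (0.0654%): Ta.27414.1.S1_at at 1.93 ± 0.26 (limma adjusted p = 0.0081), LOC543152 at 2.16 ± 0.30 (0.00839), Ta.27041.1.S1_s_at at 1.70 ± 0.26 (0.0211) and Ta.27574.1.S1_at at 1.70 ± 0.27 (0.0273). This count was 0 without K9107 shoot stressed 1 or 2, 1 without K9107 control 1, and 2 without K9107 control 2. It was 4 higher and 4 lower without HD2967 stressed 2, and 6 higher and 4 lower without either HD2967 control 1 or K307 control 3.

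In K307 shoots, 3 members passed (0.0196%): Ta.1817.1.S1_at at 1.30 ± 0.18 (limma adjusted p = 0.0136), Ta.27041.1.S1_s_at at 1.78 ± 0.26 (0.0143) and Ta.8277.1.A1_at at 1.15 ± 0.19 (0.0352). The count was 0 without K307 shoot control 1, control 3, stressed 2 or stressed 3, and 5 without HD2967 control 1. In CL shoots, 8 passed (2.92%), led by Ta.27414.1.S1_at at 2.04 ± 0.25 (limma adjusted p = 0.000758), LOC543152 at 1.85 ± 0.28 (0.00236) and Ta.23013.3.S1_s_at at 5.08 ± 1.00 (0.0102). The CL count was 2 to 5 without any of the 3 stressed arrays or without control 1. In CL shoots the replicate numbers were taken to pair the arrays, from the residuals of these same shoot values. With the replicate number as a block, 15 members passed (5.65% of all probe sets).

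No member passed the limma test of a difference in response between genotypes in shoots (0.0458% of all probe sets passed), with 21 members at an unadjusted p under 0.05 (9.75% of all probe sets). The count was 1 without HD2967 shoot stressed 1 and 1 without CL shoot control 3. At control nitrogen, 15 members of 12 base identifiers differed among the shoots of HD2967, K9107 and K307 (7.56% of all probe sets). The control shoots of HD2967 and K9107 share no median set, so this test depends on offsets between sets that the fit estimates. The lowest adjusted p values were those of Ta.5164.1.S1_at (limma F-test, 0.00107), TaAffx.11770.1.A1_at (0.00399) and Ta.24768.1.A1_x_at (0.0091). The means that follow are plain and not set-adjusted. Ta.5164.1.S1_at had control shoot means of 1.94 ± 0.55 (SD, n = 3) in HD2967, -0.11 ± 0.27 in K9107 and 0.47 ± 0.29 in K307. Its set-adjusted K9107 minus HD2967 difference was -2.65. TaAffx.11770.1.A1_at was highest in K9107, at 1.36 ± 0.35, and lowest in K307, at -0.54 ± 0.43. Ta.24768.1.A1_x_at was also highest in K9107, at 3.48 ± 1.12, with array 1 at 4.77. The count fell to between 3 and 8 without K9107 control 1 or 2, K9107 stressed 2 or 3, K307 control 2 or 3, or HD2967 control 2.

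Genes of nutrition, proteolysis, sugar and cell wall, and stress and defence were looked up by name in lists beside the members. None of their probe sets was a member. Only 6 members are paired with a gene, by LOC names that give no function. A member could thus hardly be matched by name, and nothing is read from this absence. No probe set could be matched by name to nitrate or ammonium uptake, nitrate reduction or ammonium assimilation. Of 5 probe sets for other mineral nutrition, 1 was higher in roots (3.34% of all probe sets in the root average). The same 1 was higher in shoots (0.517% in the shoot average), that of TaALMT1, the aluminium-activated malate transporter. It was higher by 0.85 ± 0.24 in roots (limma adjusted p = 0.0419) and 2.89 ± 0.33 in shoots (0.000278). Its root differences of -0.13, 0.23, 2.14 and 0.90 in HD2967, K9107, K307 and CL gave it rank 21282. Of 3 probe sets of UBC1, a ubiquitin-conjugating enzyme, 1 was higher in roots, by 0.47 ± 0.08 (limma adjusted p = 0.000811), with differences from 0.26 to 0.60 and rank 486, and none passed in shoots. Neither of the 2 sugar and cell wall probe sets passed. Of 32 for stress and defence, 1 of Glc1 was lower in roots (2.91% of all). In shoots 3 were lower (0.245% of all), 2 of the xylanase inhibitor gene xip and 1 of the thionin gene THI1.3.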

How the data were processed

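The deposited log2 signal values came from RMA, which the submitters' processing notes name. No source used here gives its settings or says which arrays it took together. Per the series description, the authors then worked in GeneSpring and tested at p up to 0.1. The 111 control probe sets were left out of 61290, and each array's median was subtracted. The sets of 12 arrays were defined by gaps over 0.1 between array medians. The 24 shoot arrays entered 1 limma model (version 3.58.1, R 4.3.3; two-sided moderated tests by eBayes), with 8 groups of 3 arrays and set as fixed terms and 14 residual degrees of freedom, and adjusted over 61179 probe sets at 0.05. The same model of the 24 root arrays gave the values of genes outside the list. The fits were tested on simulated data. Tables were made with Python 3.11.15 and pandas 2.3.3, and figures with matplotlib 3.10.9. The number of arrays limits the precision.

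The members and gene lists were chosen with earlier results of these data known, so nothing in roots is independent support. Members named were drawn from the 20 highest scores, not all of which are named, and from those paired with a gene. Others were drawn from the 8 lowest p among shoot calls in each direction and the 3 lowest per genotype and per F-test. The rest came from those beside the threshold and base identifiers with several members. Ta.5191.1.A1_at, Ta.28347.1.S1_s_at and the members low in shoots were chosen after their values were seen.

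Residuals of same-numbered control and stressed arrays correlated at 0.115, 0.143 and 0.228 in CL shoots, all over 0.1, so these numbers were taken to pair arrays, from the values alone. CL roots, at -0.141, -0.31 and 0.0393, did not meet this criterion. In the other groups correlations ran from -0.522 to 0.556. Alternatives were no set term, no median subtraction, quantile normalisation, a filter on dim probe sets, a replicate block, the methods' t-test and leaving out arrays or genotypes. No sequence was read.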

Additional observations from a re-analysis of the deposited data

Results flagged for a closer look

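In shoots, Ta.1608.1.S1_at moved opposite ways in 2 genotypes with no overlap of groups. HD2967 shoots lay at -1.69, -1.43 and -1.42 in control and -0.88, -1.36 and -0.94 in stressed arrays, a difference of 0.45, and K9107 shoots at -1.07, -1.12 and -1.21 against -1.67, -1.88 and -1.44, a difference of -0.53. The gap was 0.984, at levels below the array median. The gap between this pair of genotypes was not tested, and the limma test over all 4 genotypes gave an adjusted p of 0.595.

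TaAffx.11770.1.A1_at was likewise above its controls in every stressed K307 shoot and below them in every stressed CL shoot. K307 shoots lay at -0.07, -0.92 and -0.62 in control and 0.67, 1.44 and 0.71 in stressed arrays, a difference of 1.48, and CL shoots at -0.30, 0.79 and -0.06 against -0.55, -0.37 and -0.37, a difference of -0.57. The gap was 2.05, between values on different scales. This gap was not tested either, and the limma test over all 4 genotypes gave an adjusted p of 0.228. Both members were chosen among many for lying apart in 2 genotypes, in which groups of 3 arrays often do not overlap: 2.29% to 12.3% of all probe sets in 1 direction and shoot genotype.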

How the results depend on the processing

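No called result reversed under any alternative run. Shoot estimates near 0 that were not called did change sign, such as that of Ta.264.1.S1_s_at. It was 0.10 in the main fit and -0.04 after quantile normalisation. The 18 members called in the shoot average were 11 after quantile normalisation, 11 without the 12 CL arrays and 10 with a replicate block within genotype, and 10 to 21 with 1 array left out. With the block 9 of the 15 higher and 0 of the 3 lower members stayed called: the adjusted p was 0.103 for Ta.667.1.A1_at, 0.0795 for Ta.9096.1.A1_at, 0.52 for Ta.24768.1.A1_x_at and 0.0732 for Ta.8277.1.A1_at. HD2967 had 1 called member and 4 with no set term, but 0 after quantile normalisation, 0 among probe sets above the array median, 0 without the CL arrays and 0 with the block. K9107 had 4, with 2 after quantile normalisation and 10 with the block, 5 higher and 5 lower (1.1% of all probe sets called). K307 had 3, with 0 after quantile normalisation, 1 without the CL arrays and 0 with the block. CL had 8, and 15 with a block within CL alone, which was added after the data were seen. The 15 members that differed between genotypes at control nitrogen were 4 after quantile normalisation and 2 with the block, close to the 3.55% and 2.22% of all probe sets under those settings. With 1 array left out the counts ran from 2 to 11 in CL, 0 to 1 in HD2967, 0 to 10 in K9107 and 0 to 5 in K307, 0 to 1 for the test between genotypes and 3 to 18 for control nitrogen. The methods' t-test at p under 0.1 passed 41 members in K307 (10.8% of all probe sets), 38 in HD2967 (23%), 33 in K9107 (9.26%) and 22 in CL (15.5%), and 0 in each after Benjamini-Hochberg adjustment. The cause of these differences was not tested. The median shoot response stayed between 0.28 and 0.43. Outside CL shoots the replicate numbers did not pair the arrays by the criterion used, and CL roots did not meet it either.

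Membership depended most on the genotypes: the list shared 51 members with the list chosen without CL and 64 with that chosen without HD2967. It shared 82 with values as deposited, 87 with the set term, 76 after quantile normalisation, 96 among probe sets above the array median, 73 with differences within sets (added after the data were seen) and 75 to 99 with 1 array left out. Dropping HD2967 shoot control 1 and K307 shoot control 3, a pair set apart by earlier results of these data, gave 20 members higher and 3 lower, also added later. The count was 21 without HD2967 shoot control 1 and 12 without K307 shoot stressed 3, which went against their groups for Ta.23013.3.S1_s_at. The CL root counts without stressed array 1 were added later too. The limits are 3 arrays a group, the set structure, the CL scale and unnamed probe sets.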
